A study of Mus musculus with 8 samples.

Results

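The genes described here encode the matrix metalloproteinases (MMPs), the ADAM and ADAMTS proteases, the protease-like ADAMTSL proteins and the tissue inhibitors of metalloproteinases (TIMPs). Members were all protein-coding genes of GENCODE release M21 whose symbol was Mmp, Adam, Adamts or Adamtsl followed by a number (with a final letter allowed for Mmp and Adam), or Timp1 to Timp4. This gave 83 of the 55359 gene identifiers in the table: 22 MMP, 33 ADAM, 19 ADAMTS, 5 ADAMTSL and 4 TIMP genes. Mmp1a fits the name but is annotated as a polymorphic pseudogene and was left out, and it had 0 counts in total. Expression was measured by RNA-seq of poly(A)-enriched RNA from MLO-Y4, an osteocyte-like mouse line labelled wild type. Osteocytes are the long-lived cells that bone encloses. The irradiated group (4 libraries, L5 to L8) received a pulsed Er:YAG laser, an infrared laser used in dentistry, at 2940 nm and 6 J/cm2 for 1 min from 25 cm, with the medium removed. The non-irradiated group (4 libraries, C5 to C8) was the control, and how its medium was handled is not given in the sources used here. All cells grew on rat tail collagen type I in medium with serum, were seeded 72 h before irradiation, and gave RNA 6 h after it.

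MMPs are zinc-dependent enzymes that cut collagen and other matrix proteins, and most are made as inactive proenzymes. ADAMs sit in the plasma membrane and release the outer parts of other membrane proteins, while ADAMTS enzymes are secreted and cut proteoglycans and procollagens. ADAMTSL proteins share the ADAMTS accessory domains but have no protease domain, and TIMPs bind and block the active site of MMPs and of some ADAMs and ADAMTSs. Osteocytes use MMPs to remodel the matrix around their lacunae, and in mice Mmp14 is needed for normal osteocyte processes.

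Library totals ran from 43786209 to 51734166 counts, and TMM scaling factors from 0.989 to 1.01. The labels do not say whether the libraries of a group came from separate cultures, so p-values measure the spread between these libraries, which may be technical. Among 7 osteocyte markers Sost, Mepe and Fgf23 had 0 counts in all libraries and Dmp1 had 82 in total, whereas Pdpn, Gja1 and Phex passed the filter. That list summed to 927.2 to 960.6 CPM in irradiated libraries and 738.5 to 764.8 CPM in non-irradiated libraries. Of 8 macrophage and osteoclast markers Ptprc, Adgre1, Itgam, Acp5 and Calcr were at 0. These markers summed to 28.3 to 31.3 CPM in irradiated libraries and 17.4 to 21.3 CPM in non-irradiated libraries, mostly Csf1r. An osteoblast list summed to 1232 to 1328 CPM in irradiated and 1149 to 1281 CPM in non-irradiated libraries. The part of these cell markers in the results below was not tested. Endothelial, epithelial, neutrophil and mast cell, and testis markers reached at most 0.617 CPM per list in any library.

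Most of these genes were silent or nearly so in MLO-Y4 cells. Of the 83 members 29 had 0 counts in all 8 libraries, 16 had counts but stayed below the expression filter, and 38 were tested. A count of 0 in the smallest library allows up to 0.0685 CPM (counts scaled to a common library size; the limit stands for 3 counts), a value that covers counting error only and is larger if 1 fragment adds several counts. Expressed per kilobase of exon, so that genes can be compared, Timp1 (452 CPM per kb over all libraries), Timp2 (286) and Mmp2 (269) were the most abundant members. Mmp14 (70.8), Adam10 (57.0), Adam19 (46.1), Adam9 (39.3) and Adam15 (34.0) followed. ADAMTS genes were lower, led by Adamts1 with 16.2 CPM per kb, while Adamtsl4 and Adamtsl5 stood at 22.7 and 17.8 CPM per kb.

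**Figure D1:**
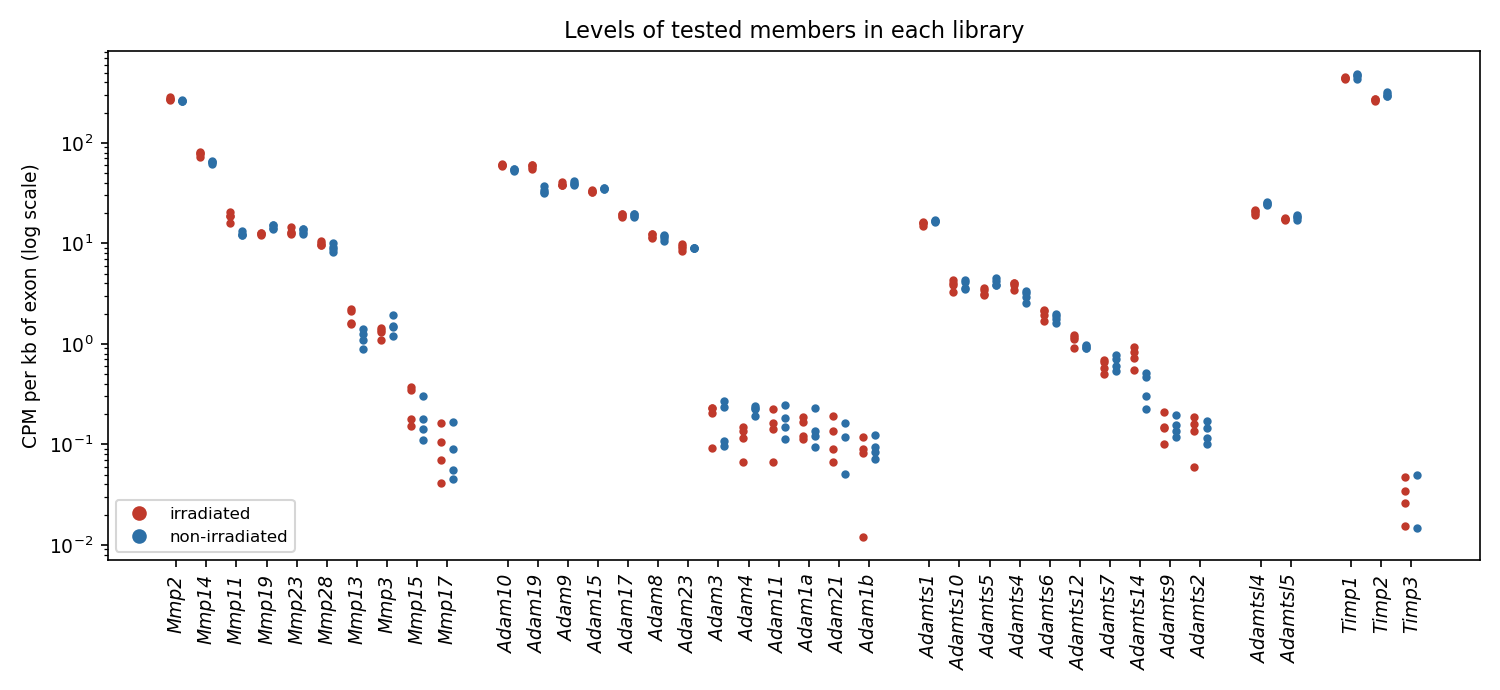
Level of each of the 38 tested members in CPM per kb of exon (log axis), 1 point per library, irradiated to the left of non-irradiated within each gene and genes grouped by class. Libraries at 0 cannot be drawn on a log axis and are missing (Timp3 and Adam21). Timp1, Timp2 and Mmp2 lie highest, and Timp3 has the lowest mean.

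The question here is which of these genes differed between irradiated and non-irradiated cells. Medium was removed for irradiation and its handling in the control is not given, so laser and medium removal cannot be told apart. Of the 38 tested members 7 were higher in irradiated cells (Mmp11, Mmp13, Mmp14, Adam10, Adam19, Adamts4 and Adamts14) and 4 were lower (Mmp19, Adamts5, Adamtsl4 and Timp2), by edgeR's quasi-likelihood test with Benjamini-Hochberg adjusted p under 0.05 over all tested genes. The other 27 did not pass. RNA came from whole cultures, so fewer cells expressing a gene and less RNA per cell cannot be told apart. Among all 15164 tested genes 15.0% passed, 8.22% higher and 6.75% lower, while 28.9% of the tested members passed, and that difference was not tested. All 11 called members, and also Adam15 and Adam4, had irradiated and non-irradiated libraries that did not overlap. These were 13 of 38, 7 above and 6 below, against 18.5% of all tested genes, 9.76% above and 8.78% below. The tested members' median log2 fold change (irradiated over non-irradiated, positive when higher in irradiated cells) was 0.016, against -0.0065 over all tested genes. Scaled by library totals alone, 7 members were higher and 5 lower, and over all genes 1050 were higher and 1345 lower, against 1247 and 1023 here.

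**Figure D2:**
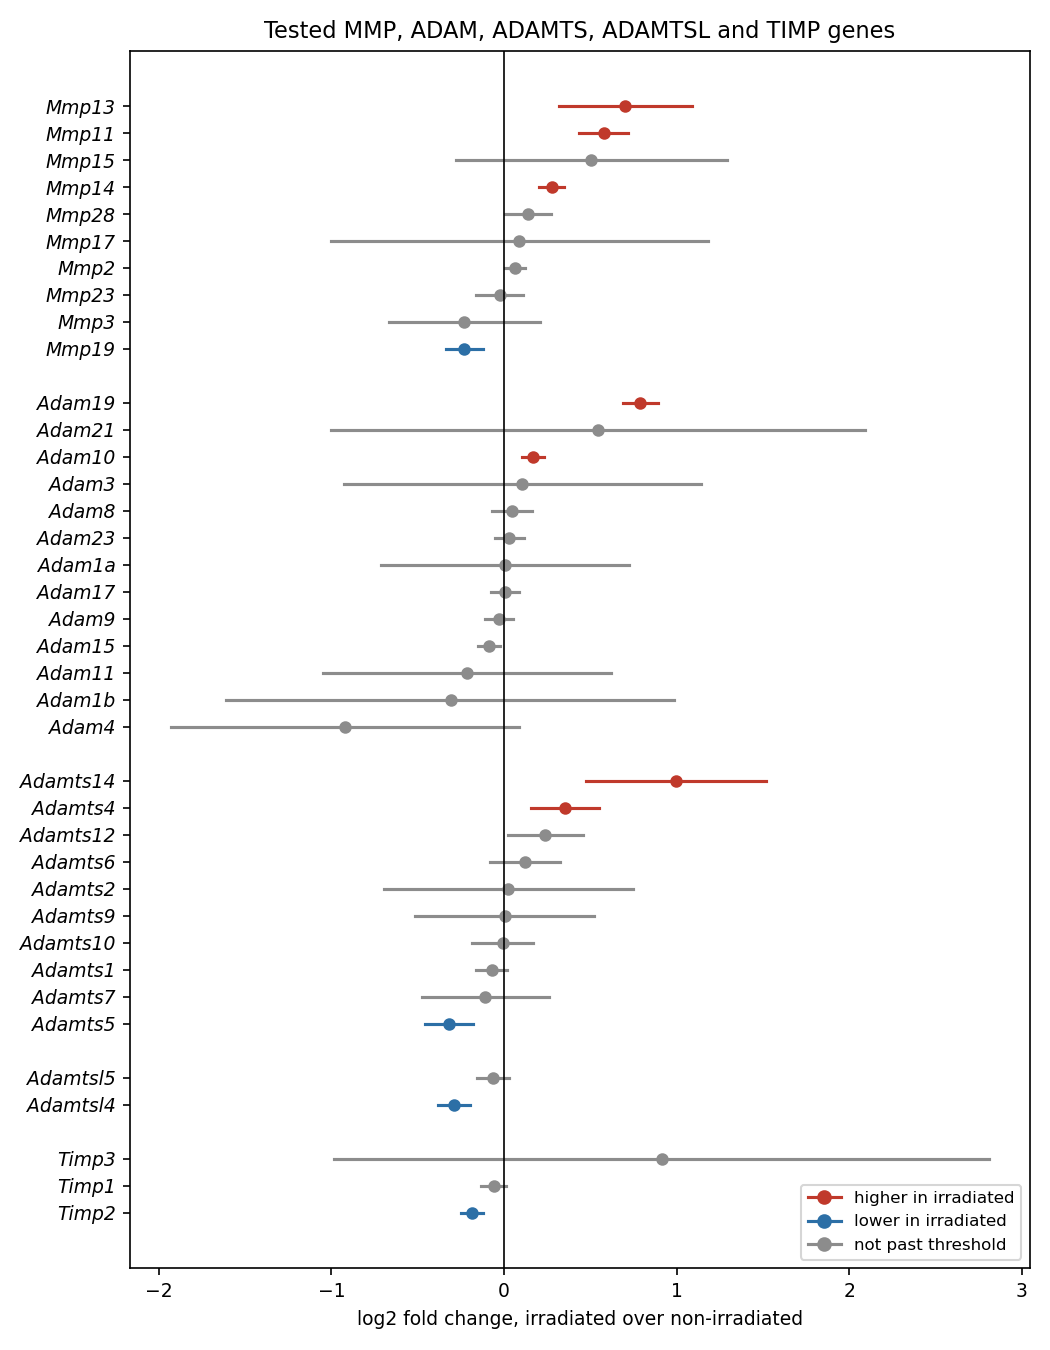
Log2 fold change of irradiated over non-irradiated cells for the 38 tested members, grouped by class, as points with 95% confidence intervals (lines). The 7 called higher lie right of 0 and the 4 called lower lie left of it, with changes between -0.32 and 1.00, and intervals are widest for genes of very low level such as Timp3.

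Among MMPs 3 of 10 tested genes rose, 1 fell and 6 did not pass, where 8.22% of all tested genes were higher and 6.75% lower. With 10 genes these shares were not compared by a test. Mmp11 (ENSMUSG00000000901.18) encodes stromelysin-3, which furin activates inside the cell. Its levels were 57.2, 44.6, 52 and 52.5 CPM in irradiated libraries, against 34.6, 33.3, 36.9 and 33.3 CPM in non-irradiated libraries. The lowest irradiated library thus stood above the highest non-irradiated one. Mmp11 averaged 51.6 ± 5.18 CPM in irradiated and 34.5 ± 1.73 CPM in non-irradiated cells (SD, n = 4 each), a 1.49-fold rise (log2 fold change 0.58, SE 0.0674, edgeR adjusted p = 4.9e-06). Its exons overlap those of Chchd10 on the other strand, which also rose (log2 fold change 0.44, adjusted p = 0.00869), and without stranded counting reads of the pair cannot be told apart. Mmp11 had 16502 counts in total and Chchd10 had 4150.

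Mmp14 (ENSMUSG00000000957.12), the membrane-type MMP that cuts collagen at the cell surface and activates the Mmp2 proenzyme, was the second most abundant MMP. It stood at 468.5, 433.4, 480.8 and 465.7 CPM in irradiated libraries, against 384.0, 393.7, 382.1 and 366.2 CPM in non-irradiated libraries. No libraries of the groups overlapped. The rise was 1.21-fold (log2 fold change 0.28, SE 0.034, adjusted p = 9.04e-06). The other membrane-type genes tested, Mmp15 and Mmp17, were at 1.42 ± 0.609 and 0.631 ± 0.352 CPM in irradiated cells and at 0.995 ± 0.458 and 0.593 ± 0.367 CPM in non-irradiated cells, with overlapping groups and adjusted p = 0.426 and 0.941. Mmp24 had 0 counts in every irradiated library, against 11, 19, 5 and 0 counts in non-irradiated libraries, and was below the filter. It shares exon sequence with the opposite-strand gene BC029722, which had 14932 counts in total.

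Mmp13 (ENSMUSG00000050578.11), the main collagenase of rodent bone, was expressed weakly. Irradiated libraries held 4.35, 4.23, 5.89 and 5.72 CPM, against 2.93, 3.72, 2.39 and 3.34 CPM in non-irradiated libraries. Every irradiated library was higher than every non-irradiated one. Mmp13 rose 1.63-fold (log2 fold change 0.70, SE 0.184, adjusted p = 0.0126). The call ended without L7, L8 or C7, with adjusted p up to 0.0527. The other collagenase genes, Mmp8 and Mmp1b, had 0 counts.

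Mmp13 lies at the edge of a cluster on chromosome 9 in which GENCODE M21 places Mmp13, Mmp12, Mmp1b, Mmp3, Mmp1a, Mmp10, Mmp8, Mmp27, Mmp20 and Mmp7 next to each other. Of the 9 members in it only Mmp13 and Mmp3 had counts (1558 and 979 in total), and 7 had 0. Mmp3, stromelysin-1, which cuts many matrix proteins and activates other MMP proenzymes, was at 1.97, 2.35, 2.61 and 2.47 CPM in irradiated libraries, against 2.67, 2.72, 2.16 and 3.46 CPM in non-irradiated libraries. These groups overlapped, and Mmp3 missed the threshold (log2 fold change -0.23, 95% interval -0.67 to 0.21, adjusted p = 0.537). Whether the changes of Mmp13 and Mmp3 differed from each other was not tested.

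The promoters of this cluster are shown because, among neighbours with the same short motif, some had counts at a low level and others had 0. The motif searched was TGANTCA, the heptamer bound by AP-1 (Fos and Jun) factors, where N is any base, and the search covers both strands because the letters are their own reverse complement. In RefSeq promoters of GRCm38.p6, from 250 bases before to 50 after each start, 7 of the 9 cluster members held it, all within 100 bases before a start. Counted by gene in the same way, it was found in 8.97% of all 27025 genes in the table, and counted by promoter in 7.81% of 32851. The 100 bases before the start are given 5′ to 3′ on the gene's strand, with the heptamer in capitals, for the 2 genes with counts and for 2 with 0 counts. They lie on chromosome 9, plus strand, at chr9:7272414-7272513 (Mmp13), chr9:7445722-7445821 (Mmp3), chr9:7502242-7502341 (Mmp10) and chr9:7691990-7692089 (Mmp7), in a build that is not the one named for the counts.
Mmp13: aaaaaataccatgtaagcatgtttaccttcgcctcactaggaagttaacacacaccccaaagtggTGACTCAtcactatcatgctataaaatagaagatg
Mmp3: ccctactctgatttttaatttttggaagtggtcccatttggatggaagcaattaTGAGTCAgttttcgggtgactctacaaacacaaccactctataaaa
Mmp10: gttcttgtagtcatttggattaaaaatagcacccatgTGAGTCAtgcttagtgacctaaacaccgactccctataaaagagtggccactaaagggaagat
Mmp7: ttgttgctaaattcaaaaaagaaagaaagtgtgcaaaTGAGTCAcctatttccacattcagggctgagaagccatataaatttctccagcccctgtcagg
The heptamer began 35 bases before the start in Mmp13, 46 in Mmp3 and 63 in both Mmp10 and Mmp7. Its spelling was TGACTCA in Mmp13 and TGAGTCA in the other three. Mmp8 and Mmp27 held no match in this window. A match is a description of the sequence and not evidence of binding.

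**Figure D3:**
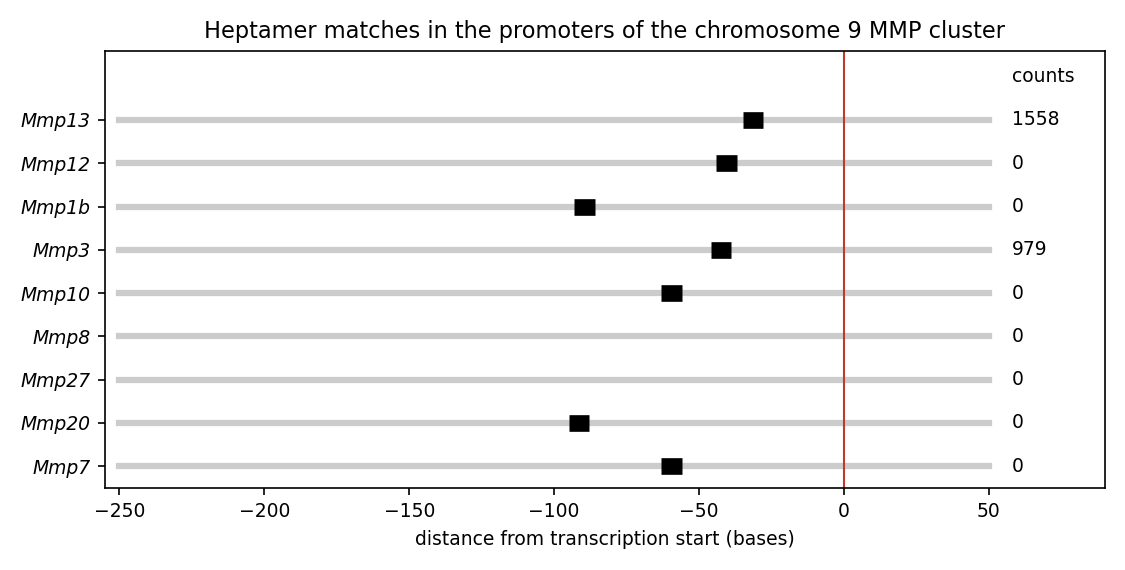
Position of TGANTCA (black boxes) in the promoters of the 9 cluster members, from 250 bases before to 50 after the transcription start (red line), with total counts over 8 libraries at right. Genes run in chromosomal order, matches from any promoter of a gene are drawn on 1 line, and only Mmp13 (1558) and Mmp3 (979) had counts although 7 genes hold the motif.

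Mmp2 (ENSMUSG00000031740.9), gelatinase A, which digests denatured collagen and is activated by Mmp14 together with Timp2, made up 67% of all MMP signal per kb in irradiated and 69.3% in non-irradiated cells. Its levels were 895.5, 923.3, 973.7 and 916.2 CPM in irradiated libraries, against 886.2, 882, 900.1 and 883.6 CPM in non-irradiated libraries. L5 lay within the range of the non-irradiated libraries and the other irradiated libraries lay above it. Mmp2 missed the threshold (log2 fold change 0.06, 95% interval 0.003 to 0.12, adjusted p = 0.156). Mmp9, the other gelatinase, had 21 counts over the irradiated and 27 over the non-irradiated libraries and was not tested.

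Mmp19 (ENSMUSG00000025355.8), a secreted MMP that cuts basement membrane proteins, was the MMP that fell. It stood at 45.1, 43.8, 44.8 and 42.8 CPM in irradiated libraries, against 54.1, 50.4, 53.5 and 49.1 CPM in non-irradiated libraries, so the groups were apart. The log2 fold change was -0.23 (SE 0.0515, adjusted p = 0.00396). Its overlap with Tmem198b on the other strand (8339 counts in total, log2 fold change 0.10, adjusted p = 0.481) is another place where unstranded reads could be shared. Mmp28, which encodes epilysin, and Mmp23 did not pass (adjusted p = 0.162 and 0.858), at 38.6 ± 1.76 and 30.6 ± 2.11 CPM in irradiated cells and 35.1 ± 2.91 and 31.2 ± 1.81 CPM in non-irradiated cells.

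**Figure D4:**
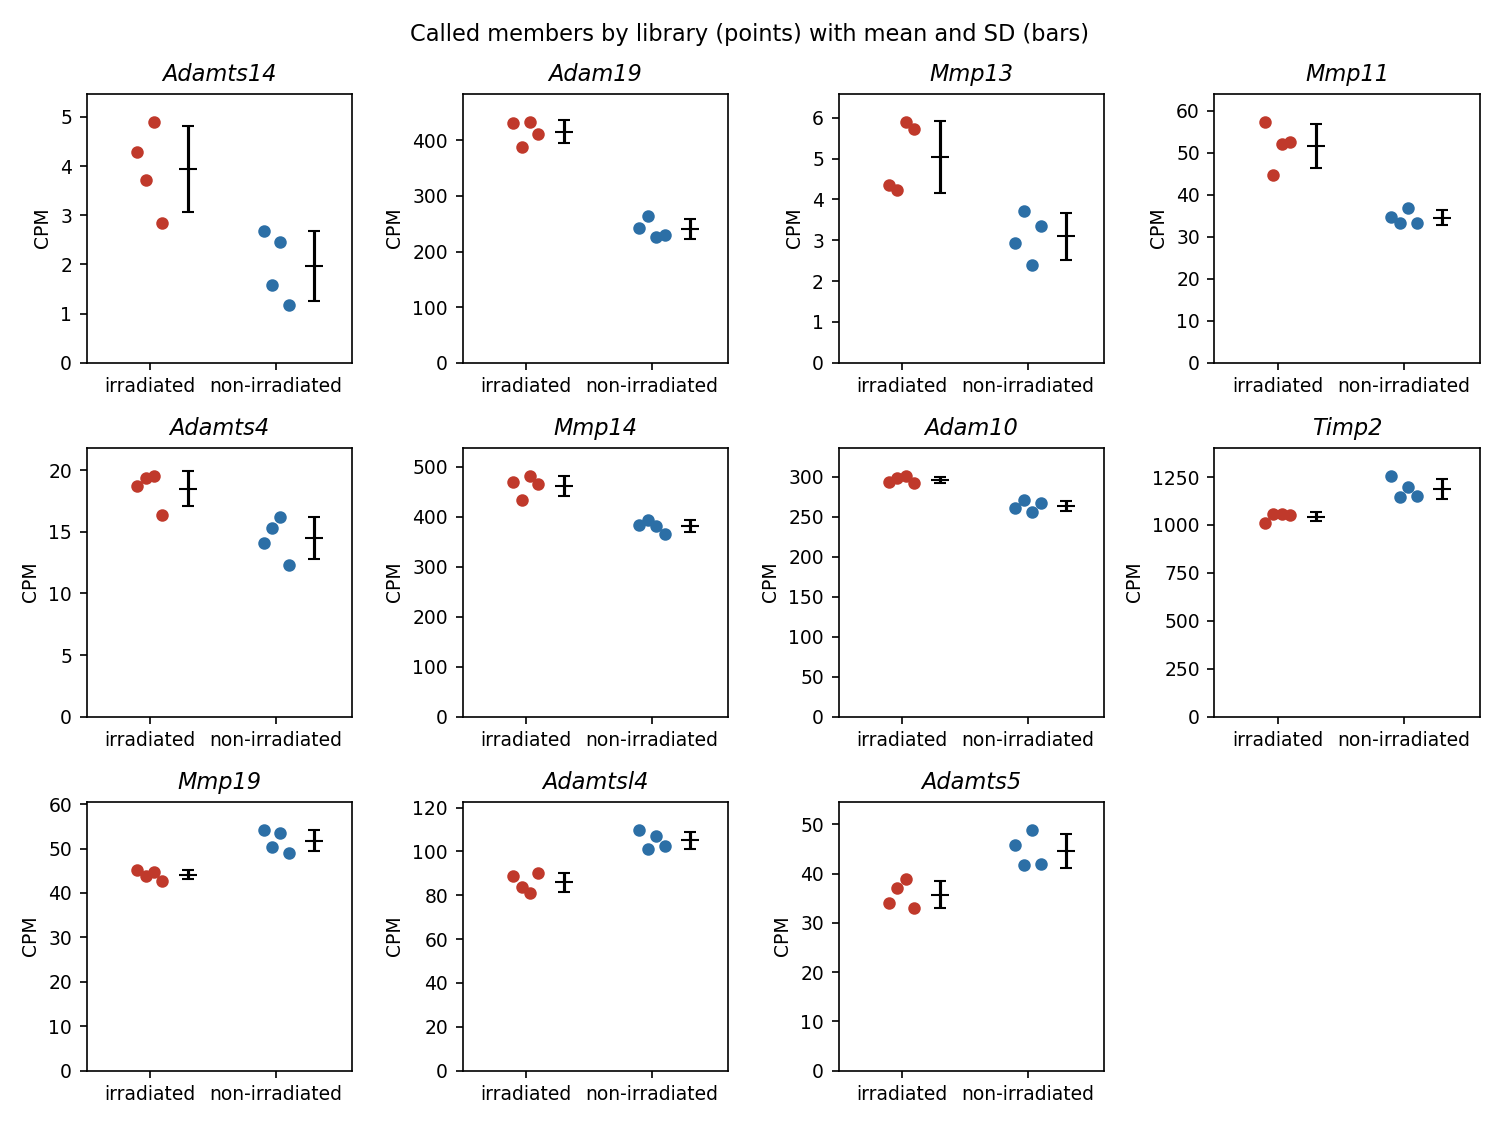
CPM of the 11 called members in each library (points; irradiated left, non-irradiated right of each panel) with the mean and SD of 4 libraries (bars), ordered from the largest rise to the largest fall. In every panel the groups do not overlap, with the smallest gap relative to its level in Adamts4 (16.4 CPM in L8 against 16.2 CPM in C7).

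Of 3 tested TIMP genes 1 fell and 2 did not pass, where 6.75% of all tested genes fell, and 3 genes are too few to read a share from. Timp2 (ENSMUSG00000017466.10) inhibits MMPs broadly and at the cell surface also links the Mmp2 proenzyme to Mmp14. It was at 1011, 1056, 1056 and 1051 CPM in irradiated libraries, against 1254, 1145, 1200 and 1151 CPM in non-irradiated libraries. All irradiated libraries were lower than all non-irradiated ones, and the log2 fold change was -0.19 (SE 0.0302, adjusted p = 0.000204). Timp1, a secreted inhibitor, stood at 395.1, 393.8, 384.9 and 398.1 CPM in irradiated libraries, against 407.9, 417.9, 382.4 and 431.4 CPM in non-irradiated libraries. C7 was the lowest of all 8 libraries, so the groups overlapped and Timp1 did not pass (log2 fold change -0.06, 95% interval -0.13 to 0.01, adjusted p = 0.264). Timp3, a matrix-bound inhibitor that also blocks Adam17, had 6, 11, 12 and 19 counts in irradiated libraries and 0, 19, 0 and 6 in non-irradiated libraries. At that depth its interval ran from -0.98 to 2.81 on the log2 scale (adjusted p = 0.579), and Timp4 had 0 counts.

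The ratio of Mmp14 to Timp2 counts combines a called rise with a called fall, so its direction is fixed by those calls and no test is given. It was 0.463, 0.411, 0.455 and 0.443 in irradiated libraries, against 0.306, 0.344, 0.319 and 0.318 in non-irradiated libraries. The ratio of Mmp2 to Timp2 counts averaged 0.889 ± 0.0234 in irradiated and 0.749 ± 0.0293 in non-irradiated libraries (SD, n = 4 each). That ratio contains the called fall of Timp2, while Mmp2 itself did not pass, and it was not tested either. Summed over all members of a class, MMP levels were 402.8 to 427.7 CPM per kb in irradiated and 375.1 to 384.9 in non-irradiated libraries. TIMP levels summed to 704.2 to 718.0 CPM per kb in irradiated and 738.2 to 780.9 in non-irradiated libraries. Of the MMP difference between the group means, Mmp14 held 13.5 and Mmp2 held 11.6 CPM per kb. Timp2 held -36.9 and Timp1 -19 CPM per kb of the TIMP difference.

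**Figure D5:**
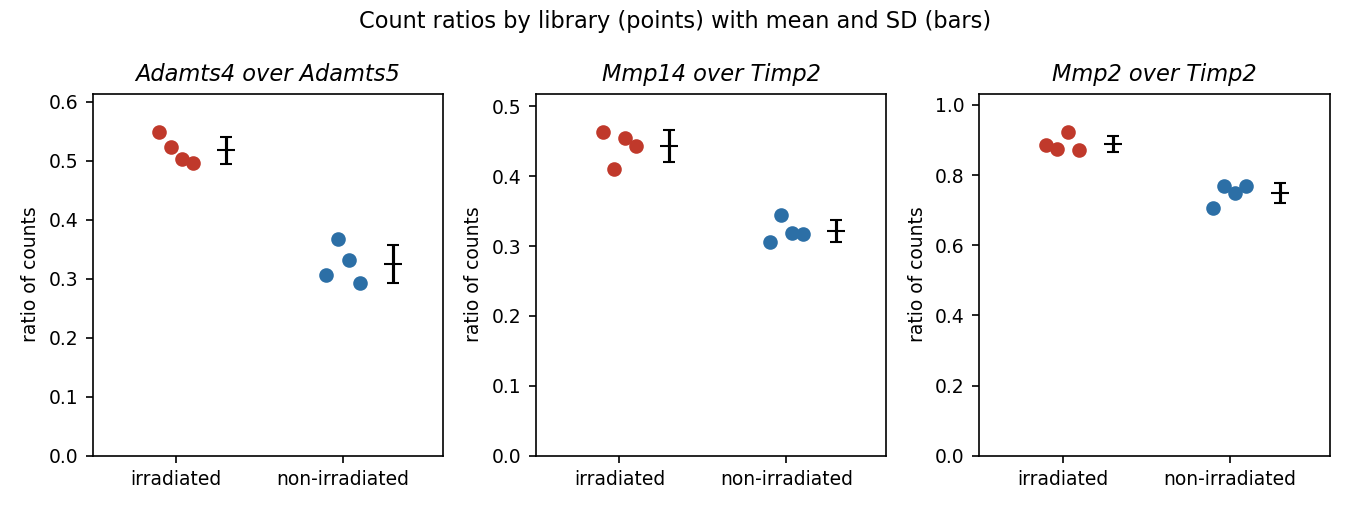
Ratios of deposited counts between pairs of members in each library (points; irradiated left, non-irradiated right of each panel) with mean and SD of 4 libraries (bars). All 3 ratios were higher in every irradiated library than in every non-irradiated one, for example 0.517 ± 0.0233 against 0.325 ± 0.0325 for Adamts4 over Adamts5. Each ratio holds a called member, so the separation is not a result apart from those calls.

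Among ADAM genes 2 of 13 tested members rose, 0 fell and 11 did not pass, 15.4% called, close to the 15.0% of all tested genes. By DESeq2 1 ADAM gene fell, Adam15, which is also the 1 with a negative change and an unadjusted edgeR p under 0.05. Adam19 (ENSMUSG00000011256.17), also called meltrin beta, which sheds neuregulins, had the lowest adjusted p of all members. It stood at 431.2, 388.4, 432.4 and 411.3 CPM in irradiated libraries, against 241.8, 264.4, 226.3 and 229.7 CPM in non-irradiated libraries. The groups lay far apart, and the rise was 1.73-fold (log2 fold change 0.79, SE 0.0474, adjusted p = 1.67e-08). Opposite-strand genes that share its exon positions, Gm16033 and Gm16034, had 4 and 3 counts in total. Adam19 held 24.6 CPM per kb of the difference in summed ADAM level, which was 231.6 ± 2.76 CPM per kb in irradiated and 202.8 ± 5.01 in non-irradiated cells (SD, n = 4 each).

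The Adam19 promoter also held the heptamer, 131 bases before the start, and is shown as the other called member with a match. The 250 bases before the start lie at chr11:46055734-46055983 of GRCm38.p6, plus strand, with the match in capitals.
Adam19: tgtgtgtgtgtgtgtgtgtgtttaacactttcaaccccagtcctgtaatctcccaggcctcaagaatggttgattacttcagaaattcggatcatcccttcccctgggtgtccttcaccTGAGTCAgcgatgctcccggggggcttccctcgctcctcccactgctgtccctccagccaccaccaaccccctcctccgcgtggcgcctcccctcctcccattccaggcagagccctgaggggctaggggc
RefSeq promoters were matched for 52 members, 12 of which (23.1%) held the heptamer, against 8.97% of 27025 genes in the table. Outside the chromosome 9 cluster it was found in 5 of 43 members. Of the called members with a promoter, 2 of 6 higher and 0 of 2 lower ones held it, too few to compare.

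Adam10 (ENSMUSG00000054693.15), the protease that sheds Notch receptors and cadherins, rose by a small amount. It was at 293.8, 298.1, 300.7 and 292.0 CPM in irradiated libraries, against 261.5, 270.5, 256.2 and 267.9 CPM in non-irradiated libraries. The groups did not overlap (log2 fold change 0.17, SE 0.0302, adjusted p = 0.000663). Adam17, the protease that releases tumour necrosis factor and ligands of the epidermal growth factor receptor, stood at 140.0, 141.4, 133.3 and 131.7 CPM in irradiated libraries, against 140.9, 139.6, 131.9 and 132.4 CPM in non-irradiated libraries. These values overlapped throughout, and the 95% interval of the log2 fold change was -0.08 to 0.08 (adjusted p = 0.962). Its exons overlap those of Iah1 on the other strand (8515 counts in total, against 52342 for Adam17).

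Of the other well expressed ADAM genes, Adam15, a membrane ADAM with an integrin-binding site, was at 202.7 ± 3.34 CPM in irradiated and 215.2 ± 3.98 CPM in non-irradiated cells (SD, n = 4 each). Its groups did not overlap but it missed the threshold (log2 fold change -0.09, adjusted p = 0.0694). It passed with DESeq2, with library totals alone and without C6. Adam9 was at 160 ± 5.63 and 163.3 ± 6.52 CPM in irradiated and non-irradiated cells (adjusted p = 0.693). Adam8 and Adam23, which has no protease activity, also did not pass (adjusted p = 0.662 and 0.701). Of 24 ADAM genes outside the group of 9 with known protease activity in many tissues, many of them testis genes in mice, 13 had 0 counts and 7 were tested. None of the 7 passed by edgeR or DESeq2, and 0 had an unadjusted edgeR p under 0.05. Adam23 apart, the tested ones averaged at most 1.10 CPM in either group.

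Of 10 tested ADAMTS genes 2 were called higher, 1 lower and 7 neither, where 8.22% of all tested genes were higher and 6.75% lower. That difference in shares was not tested. Adamts4 and Adamts5, the aggrecanases, which cut the cartilage proteoglycan aggrecan and its relative versican, went opposite ways. Adamts4 (ENSMUSG00000006403.14) was at 18.7, 19.4, 19.5 and 16.4 CPM in irradiated libraries, against 14.1, 15.3, 16.2 and 12.3 CPM in non-irradiated libraries (log2 fold change 0.35, SE 0.0939, adjusted p = 0.0139). The lowest irradiated library was just above the highest non-irradiated one, and the call ended without L7 or without C8 (adjusted p up to 0.056).

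Adamts5 (ENSMUSG00000022894.7) was at 34, 37, 38.9 and 33.1 CPM in irradiated libraries, against 45.9, 41.7, 48.8 and 41.9 CPM in non-irradiated libraries. All irradiated libraries were lower, with a log2 fold change of -0.32 (SE 0.0661, adjusted p = 0.00214). Adamts1, its direct neighbour on chromosome 16 and another versican-cutting enzyme, was at 84.3, 85.4, 86.3 and 78.4 CPM in irradiated libraries, against 85.8, 89.9, 87.6 and 88.3 CPM in non-irradiated libraries. Those groups overlapped, and Adamts1 did not pass (log2 fold change -0.07, 95% interval -0.16 to 0.02, adjusted p = 0.29). The Adamts4 to Adamts5 count ratio was 0.548, 0.523, 0.503 and 0.496 in irradiated libraries, against 0.307, 0.367, 0.331 and 0.293 in non-irradiated libraries, again with its direction fixed by the calls.

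Adamts14 (ENSMUSG00000059901.13), which removes the amino-terminal propeptide of fibrillar procollagens, had the largest change of the called members and, per kb, the lowest level of them. It was at 4.29, 3.72, 4.89 and 2.85 CPM in irradiated libraries, against 2.67, 1.58, 2.45 and 1.17 CPM in non-irradiated libraries. The groups were apart by a small margin at L8 and C5. The log2 fold change was 1.00 (SE 0.251, 95% interval 0.47 to 1.52, adjusted p = 0.0097). Adamts2, with the same activity, averaged 1.27 ± 0.513 CPM in irradiated and 1.25 ± 0.305 CPM in non-irradiated cells (adjusted p = 0.976), and Adamts3 had 0 counts. Adamts12 and Adamts7, which cut cartilage oligomeric matrix protein, did not pass (adjusted p = 0.137 and 0.764). Neither did Adamts10 or Adamts6 (adjusted p = 0.967 and 0.458).

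Adamtsl4 (ENSMUSG00000015850.12), which binds fibrillin microfibrils, was at 88.9, 83.6, 81.1 and 90.2 CPM in irradiated libraries, against 109.6, 101.1, 106.9 and 102.5 CPM in non-irradiated libraries. It fell in every irradiated library relative to every non-irradiated one (log2 fold change -0.29, SE 0.0444, adjusted p = 0.000113). Adamtsl5, another fibrillin-binding relative, averaged 82.4 ± 1.9 CPM in irradiated and 86.2 ± 4.36 CPM in non-irradiated cells (SD, n = 4 each), with overlapping groups (adjusted p = 0.375). The other members of that class were at 0 or under the filter. Among all members under the filter, Adam12 (33 counts over irradiated and 10 over non-irradiated libraries), Adam22 (33 and 12) and Adamts18 (7 and 22) had the most counts apart from Mmp9, Mmp24 and Adam32 (17 and 24).

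A list of 35 genes held activators, carriers, partners, clearance receptors and inhibitors of these proteases. It also held genes for ADAMTS glycosylation or relatives, and a group of astacin and meprin metalloproteases that includes Tll1. Of the list 23 were tested. Of these 4 rose, 3 fell and 16 did not pass, 30.4% called against 15.0% of all tested genes, with a median log2 fold change of 0.037. Furin, the proprotein convertase that removes the propeptides of Mmp11, Mmp14 and many ADAM and ADAMTS proteins, was at 1199, 1201, 1271 and 1244 CPM in irradiated libraries, against 700.9, 747.3, 675.5 and 694.6 CPM in non-irradiated libraries. The groups lay far apart (log2 fold change 0.80, SE 0.0318, adjusted p = 6.3e-12). Tll1, a tolloid-like protease that processes procollagen, stood at 9.56 ± 0.634 CPM in irradiated and 4.79 ± 0.684 CPM in non-irradiated cells (SD, n = 4 each; log2 fold change 1.00, adjusted p = 2.2e-05).

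Of 5 tested partners or inhibitors of Mmp14, 1 was called higher, 2 lower and 2 did not pass. Over all tested genes 8.22% were higher and 6.75% lower, and 5 genes are too few to read a share from. Cd44, a hyaluronan receptor that Mmp14 cuts, rose (log2 fold change 0.22, adjusted p = 0.00464), and Cav1, the caveolin gene, fell (log2 fold change -0.24, adjusted p = 3.37e-05). Cd151, a tetraspanin found with Mmp14, was called lower (log2 fold change -0.11, adjusted p = 0.0471), and so was Tspan14, a tetraspanin that escorts Adam10 (log2 fold change -0.28, adjusted p = 0.0382). Mrc2, a collagen uptake receptor, was called higher (log2 fold change 0.09, adjusted p = 0.0212). The Cd151 call ended without any 1 library other than C6 (adjusted p up to 0.159), and also with relative log expression size factors (0.0516), limma-voom (0.0623), the filter of 1 count in total (0.0687) and the library-number block (0.0858). The Tspan14 call ended without L5, L6, L8, C6, C7 or C8 (up to 0.125), and the Mrc2 call without L7, L8, C5, C7 or C8 (up to 0.0792). With the block the adjusted p was 0.062 for Tspan14 and 0.0653 for Mrc2, and with library totals alone it was 0.0705 for Mrc2. Bsg, which induces MMP expression in neighbouring cells, averaged 806.9 ± 13.7 CPM in irradiated and 786.2 ± 15.7 CPM in non-irradiated cells (SD, n = 4 each) and did not pass (edgeR adjusted p = 0.398). Reck, a membrane inhibitor of Mmp14, and Rhbdf1 and Rhbdf2, which carry Adam17 to the surface, did not pass (adjusted p = 0.75, 0.593 and 0.0709). For Rhbdf2 the irradiated libraries lay above the others by a small margin (17.4 CPM in L5 and L7 against 17.3 CPM in C7, log2 fold change 0.23). Groups did not overlap in 18.5% of all tested genes.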

How the data were processed

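RNA-seq of poly(A)-enriched RNA was made from 4 irradiated and 4 non-irradiated MLO-Y4 libraries, per the labels. The authors deposited whole-number estimated counts per gene, not normalized. HISAT2 2.2.1, StringTie 2.1.7, Trimmomatic 0.39, DESeq2 1.32.0 and FastQC 0.11.9 appear in the submitters' processing notes beside build GRCm39. What each tool did, the annotation release and strand use: not given in the sources used here. The deposited values vary more than read counts would (median variance 4.32 times the mean in irradiated and 4.21 times in non-irradiated libraries, for genes of 5 to 100 mean counts), and 4 occurs 6096 times against 4006 for 3 and 2428 for 5, so a fragment may add several counts.

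Column names carry numbers 5 to 8 where sample titles carry 1 to 4, so columns were tied to groups only. Symbols, biotypes and union exon lengths came from GENCODE M21, which matched 52083 of 55359 identifiers and describes GRCm38. Genes were kept by filterByExpr (minimum count 10), scaled by TMM and tested with edgeR 4.0.16 (robust glmQLFit and glmQLFTest with a term for irradiation) in R 4.3.3, over 15164 genes. SE is the log2 fold change divided by the square root of F, and 95% intervals use the test's t distribution. CPM uses TMM-scaled totals. Alternatives used other scalings and filters, DESeq2 1.42.0, limma-voom (limma 3.58.1), counts divided by 4, a block for library number and each library left out.

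Members and lists were chosen with earlier results of these data known. Named were all called members, 14 chosen by role, the 3 most abundant uncalled members of each class and all called genes of the related list, while Adam4, Adam8, Adam12, Adam22, Adam23, Adam32, Mmp15, Mmp17, Mmp24, Adamts2, Adamts7, Adamts12, Adamts18, Bsg, Reck, Rhbdf1 and Rhbdf2 were added after their values were seen. ADAM subclasses follow general knowledge, since no protein sequence table was used here.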

Additional observations from a re-analysis of the deposited data

Results flagged for a closer look

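Among the 76 groups of 4 libraries examined (38 members in each group), 2 held a library far from the other 3. The threshold used (Dixon, 95%) flags about 1 in 20 groups by chance. Timp2 in L5 was at 1011 CPM, against 1051 to 1056 CPM in the other irradiated libraries, and it lay farther from the non-irradiated libraries than those did. Adam9 in L7 was at 168.4 CPM, against 156.2 to 157.8 CPM in the other irradiated libraries, within the range of the non-irradiated libraries. Neither library changed the call of its gene when it was left out.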

How the results depend on the processing

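All 11 called members kept direction and call with each of the other scalings, filters and tools and with counts divided by 4. Leaving out 1 library gave 5 to 8 members higher and 4 to 5 lower, with Mmp13 lost without L7, L8 or C7 and Adamts4 lost without L7 or C8. Among related genes the Cd151 and Mrc2 calls did not hold under some scalings or tools, as given above. Leaving out 1 library gave 3 to 5 related genes higher and 1 to 4 lower, and the cause was not tested. The 9 sign changes were all in genes that did not pass. On the log2 scale Adam17 gave -0.0182 with library totals alone and -0.0101 to 0.0251 without 1 library, Mmp23 gave -0.071 to 0.0014 and Adamts10 gave -0.0613 to 0.0587 without 1 library. Timp3 gave no value in 3 alternatives. No pairing by library number was seen: correlations of deviations ran from -0.0459 to 0.00144, and no library correlated best with its own number. With 4 libraries per group these correlations cannot settle whether equal numbers mark a shared culture or day. With the replicate block 7 members were higher and 4 lower, 3 related genes were higher and 1 lower, and over all genes 1006 were higher and 751 lower. Depth limits genes under about 1 CPM, where intervals are wide (Timp3).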
